A study of Arabidopsis thaliana with 12 samples.

Results

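The interaction of SMX and sucrose was examined in whole wild-type seedlings of Arabidopsis thaliana (ecotype Columbia), over all 12 arrays of the series. SMX is sulfamethoxazole, a sulfonamide. The interaction is the SMX difference with sucrose (sucrose + SMX minus sucrose alone) minus the SMX difference without sucrose (SMX alone minus no treatment), in log2 units. It was computed for all 22746 probe sets that are not Affymetrix controls, of 22810 on the array. The 4 groups were seedlings given 10 mM sucrose and 0.2 µM SMX together, 10 mM sucrose alone, 0.2 µM SMX alone, or neither, with 3 biological replicates each and 1 array per replicate. Every group was of the same genotype and was sown in liquid MS medium in foil-wrapped multiwell plates, held for 3 days at 4 °C, lit for 6 h and grown for 3 days at 21 °C. Each RNA sample came from whole seedlings, so a change in the share of a tissue and a change of transcript level within it cannot be told apart.

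Sulfonamides block dihydropteroate synthase, an enzyme of folate synthesis. Folates carry the one-carbon units that plants use to make purines, thymidylate and methionine. Sucrose is both a carbon source and a signal, and in seedlings it is known to repress starvation genes and to induce storage, pigment and growth genes. In a crossed design of this kind the interaction asks whether the transcript response to SMX depended on sucrose. A positive value means a higher SMX difference with sucrose than without it, and a value of 0 means that both differences were equal.

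Array medians lay between 5.63 and 5.84 on the log2 scale, and the number of arrays limits the precision. The lowest value of the table, 2.118, was shared by many probe sets. A group whose 3 arrays all lay within 0.01 of it was taken to be at the floor, where a difference is only a bound. At the floor were 4617 probe sets with sucrose + SMX, 4775 with sucrose alone, 3426 with SMX alone and 3618 with no treatment. The no treatment replicates 1 and 3 stood farthest from their group mean, with residual SDs over probe sets of 0.364 and 0.347, against 0.18 to 0.265 on the other arrays. Of the marker lists for whole seedlings, all 13 photosynthesis and chlorophyll probe sets and all 69 plastid-encoded ones were above the floor in every group. The same held for all 4 of root hairs, all 2 of seed storage and all 3 of seed oil breakdown. In the root meristem and growth list, 2 of 10 probe sets had at least 1 group at the floor. Over all 22746 probe sets, 5330 had at least 1 such group. The 2 genes of the SMX target enzyme had no called interaction. AT4G30000 averaged 4.02 ± 0.045 with sucrose + SMX, 4.55 ± 0.17 with sucrose alone, 5.19 ± 0.30 with SMX alone and 5.23 ± 0.21 with no treatment (SD, n = 3 each). Its interaction was −0.49 (limma adjusted p = 0.861). AT1G69190 was at the floor on 11 of the 12 arrays.

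Few transcripts responded to SMX differently at the 2 sucrose levels by this test. Of the 22746 probe sets, 16 were called for the interaction (0.0703%) at a Benjamini-Hochberg adjusted p under 0.05 in limma, 8 with a positive value (0.0352%) and 8 with a negative value (0.0352%). The even split did not hold in some other settings. Over probe sets with a mean above 6 it was 4 positive and 15 negative, without SMX replicate 1 it was 1 and 10, and without no treatment replicate 1 it was 14 and 5. At an unadjusted p under 0.05 there were 1391 (6.12%), of which 613 were positive (2.69%) and 778 negative (3.42%). The called probe sets fell into kinds by the unadjusted p of their 2 SMX differences, which is a description and not a further test. In 8 of the 16 the SMX difference had a p under 0.05 only with sucrose, and in 4 only without sucrose. In 3 it had opposite signs at the 2 sucrose levels, and in 1 it had the same sign at both. Most calls of the first kind were higher with the combination, 6 of 8. All 3 opposite ones were lower with sucrose + SMX than with sucrose alone and higher with SMX alone than with no treatment.

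**Figure D1:**
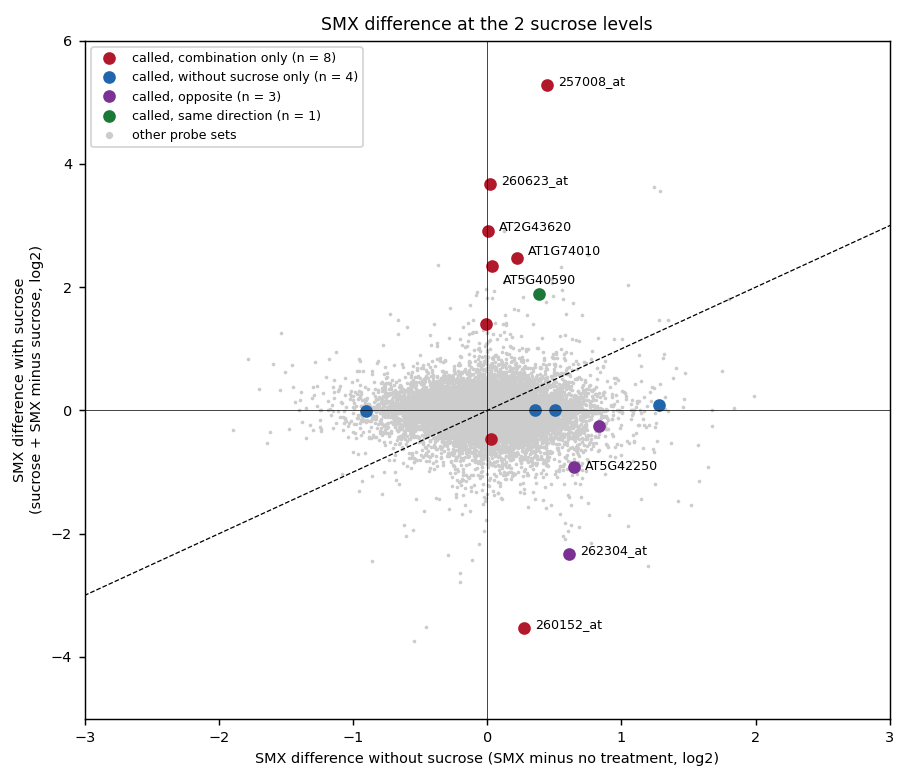
The SMX difference with sucrose (vertical axis, sucrose + SMX minus sucrose, log2) against that without sucrose (horizontal axis, SMX minus no treatment, log2), 1 point for each of the 22746 probe sets, with the 16 called ones in colour by kind and the dashed line marking equal differences. The called probe sets that SMX moved only with sucrose lie along the vertical axis, up to 257008_at. Those that it moved only without sucrose lie along the horizontal axis.

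The first kind, called combination only, is defined by an SMX difference with a p under 0.05 only with sucrose. It held 4 named genes, 3 of them with a mean of at least 5 in the highest group. AT2G43620, which encodes a protein of the chitinase family, a family of enzymes that cleave chitin, had 5.83, 6.41 and 6.07 on the arrays with sucrose + SMX. It had 3.65, 3.26 and 2.65 with sucrose alone, 2.57, 2.57 and 2.36 with SMX alone, and 2.53, 2.38 and 2.57 with no treatment. All 3 combination arrays lay above the other 9, and the SMX and no treatment arrays overlapped. The SMX difference was 2.92 ± 0.237 with sucrose (limma estimate ± SE) and 0.01 ± 0.237 without it, which gave an interaction of 2.91 ± 0.336 (limma adjusted p = 0.0397).

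AT5G40590 had 8.20, 7.65 and 8.19 with sucrose + SMX, against 5.72, 5.68 and 5.59 with sucrose alone. It had 5.68 on each array with SMX alone, and 5.36, 5.52 and 6.04 with no treatment. Again the combination stood alone above 9 arrays that overlapped. Its interaction was 2.31 ± 0.267 (limma adjusted p = 0.0397), from an SMX difference of 2.35 with sucrose and 0.04 without it. The 3 SMX arrays held nearly the same value (SD under 0.001), so they added almost no spread to the standard error.

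AT1G74010 is a member of the strictosidine synthase-like family, named for an alkaloid enzyme of other plants. It had 6.64, 5.98 and 6.01 with sucrose + SMX, and 3.79, 4.00 and 3.43 with sucrose alone. With SMX alone it had 4.50, 4.27 and 4.18, and with no treatment 4.15, 4.16 and 3.97. The combination arrays lay above all others, while the SMX arrays lay just above those with no treatment. The interaction was 2.25 ± 0.284 (limma adjusted p = 0.0488), with SMX differences of 2.47 with sucrose and 0.22 without it.

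The largest interactions belonged to probe sets that the platform annotation pairs with no gene. Probe set 257008_at had 8.40, 8.59 and 8.60 with sucrose + SMX, 4.25, 2.90 and 2.57 with sucrose alone, 2.93, 2.69 and 3.25 with SMX alone, and 2.28, 2.45 and 2.81 with no treatment. Its interaction of 4.84 ± 0.547 was the largest of all probe sets in the main fit (limma adjusted p = 0.0397). Probe set 260623_at had 7.12, 6.4 and 6.73 with the combination and between 2.98 and 3.14 on the other 9 arrays. Those 9 arrays hardly differed, and its interaction of 3.66 ± 0.205 had the smallest limma adjusted p of all probe sets in the main fit, 0.00102. In the other direction, 260152_at had 4.11, 3.92 and 4.38 with the combination, against 8.07, 7.49 and 7.45 with sucrose alone. It had 8.76, 8.64 and 7.98 with SMX alone and 8.21, 8.36 and 7.99 with no treatment. The combination arrays lay far below all others, and the interaction was −3.81 ± 0.343 (limma adjusted p = 0.0254).

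Another probe set of this kind had low values throughout. It was at 3.28, 3.51 and 3.90 with sucrose + SMX and between 2.12 and 2.24 on the other arrays, and its interaction was 1.40. AT2G22750, a gene of the basic helix-loop-helix family of transcription factors, lies below the level of 5 that the naming rule asked for and is named here after its values were seen. It was at the floor with sucrose + SMX and with no treatment, at 2.70, 2.50 and 2.57 with sucrose alone, and at 2.12, 2.16 and 2.16 with SMX alone. Only the sucrose arrays stood clearly above the floor, and the size of its interaction, −0.50, is a bound. It belongs to this kind by its SMX difference with sucrose, although the combination did not move from no treatment. It was the 1 called probe set with groups at the floor.

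**Figure D2:**
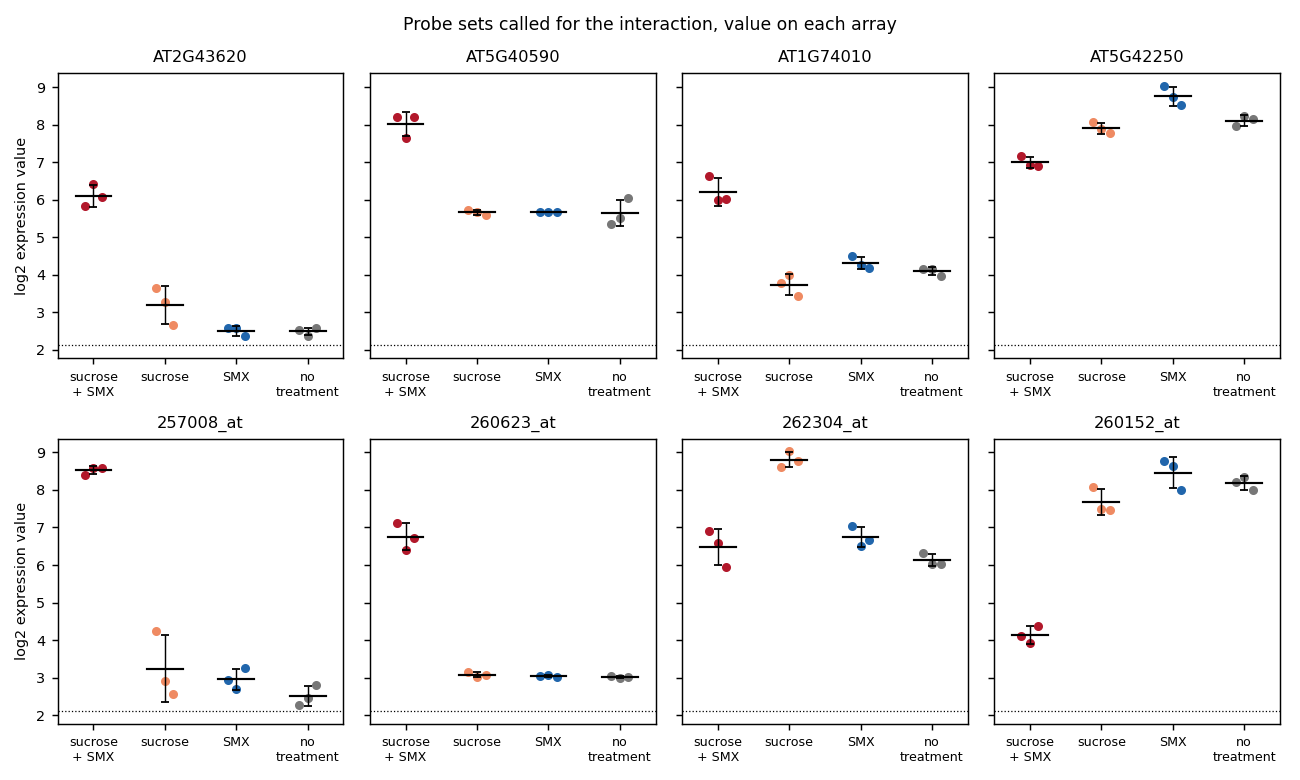
Log2 expression values on each array for the 4 named genes and the 4 unannotated probe sets called for the interaction that had a highest group mean of at least 5 and that the naming rule took. Points are arrays, the long bars are means, the error bars are SDs (n = 3) and the dotted line is the floor of 2.118. In 7 of the 8 panels the 3 combination arrays lie above or below all others, and in the panel of 262304_at the sucrose arrays do.

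Opposite signs at the 2 sucrose levels were seen in 3 called probe sets, all with a negative interaction. AT5G42250 is an alcohol dehydrogenase of the zinc-binding family, enzymes that convert alcohols and aldehydes into each other. It had 7.16, 6.92 and 6.91 with sucrose + SMX, 8.07, 7.88 and 7.77 with sucrose alone, 9.02, 8.73 and 8.51 with SMX alone, and 7.96, 8.22 and 8.15 with no treatment. The combination arrays were the lowest of the 12 and the SMX arrays the highest, with sucrose and no treatment between them. The interaction was −1.56 ± 0.199 (limma adjusted p = 0.0488). Neither SMX difference on its own passed the adjusted threshold. It was −0.91 with sucrose (limma adjusted p = 0.0651) and 0.65 without it (limma adjusted p = 0.356).

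Probe set 262304_at, paired with no gene, had 6.90, 6.58 and 5.95 with sucrose + SMX, against 8.62, 9.02 and 8.78 with sucrose alone. It had 7.03, 6.51 and 6.68 with SMX alone and 6.32, 6.03 and 6.03 with no treatment. Here the sucrose arrays stood above the other 9, and the combination overlapped SMX alone and no treatment. The interaction was −2.94 ± 0.341 (limma adjusted p = 0.0397). A further unannotated probe set had 4.96, 5.0 and 4.80 with the combination, 5.08, 5.16 and 5.27 with sucrose alone, 6.02, 6.13 and 6.24 with SMX alone, and 5.37, 5.27 and 5.27 with no treatment. It was highest with SMX alone and had an interaction of −1.08.

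The 4 probe sets that SMX moved only without sucrose had low values, all with a highest group mean under 5. The only named gene of the rule among them was UGT85A5, which encodes a UDP-dependent glycosyltransferase, an enzyme that adds sugars to small molecules. It had 2.13, 2.17 and 2.12 with sucrose + SMX, 2.13, 2.15 and 2.15 with sucrose alone, 2.15 on each array with SMX alone, and 2.86, 3.15 and 3.15 with no treatment. All treated groups were near the floor, and the no treatment arrays alone were higher. The interaction was 0.90 ± 0.0955 (limma adjusted p = 0.0381). Since the 3 treated groups were so near the floor, that size is no exact measure. With equal SMX differences, the combination would have had to lie below the lowest value of the table. The floor thus forced a positive sign, and neither sign nor size measures a dependence on sucrose. The call was lost without probe sets at the floor (limma adjusted p = 0.0803). The other 3 were higher with SMX alone than on the other 9 arrays. AT5G37620 had 2.79, 2.72 and 2.73 with SMX alone and 2.34 to 2.39 elsewhere. AT1G41750, a pseudogene in the RefSeq gene table, had 3.91, 3.61 and 4.05 with SMX alone and 2.36 to 2.58 elsewhere. A probe set with no gene had 4.01, 4.13 and 3.95 with SMX alone and 3.47 to 3.53 elsewhere. Both AT5G37620 and AT1G41750 lie below the level set for naming and were named after their values were seen. Their interactions were −0.35 and −1.19, and that of the unannotated one was −0.50.

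The 1 called probe set with the same sign at both sucrose levels was AT5G12420, which encodes a wax ester synthase-like acyltransferase and was likewise named after its values were seen. It had 4.19, 4.22 and 4.49 with sucrose + SMX, 2.45, 2.50 and 2.26 with sucrose alone, 2.50, 2.94 and 2.50 with SMX alone, and 2.25, 2.26 and 2.28 with no treatment. The SMX difference was 1.90 with sucrose and 0.39 without it, and the interaction was 1.51 ± 0.185 (limma adjusted p = 0.044).

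The highest group mean was under 5 in 7 of the 16. That share was not computed over all probe sets, so low level is not read as a trait of the calls. In 7 of the 16 at least 1 group held nearly the same value on its 3 arrays (SD under 0.001), which was so for 6668 of all probe sets (29.3%). Such groups added almost no spread to the standard error, which was 0.0338 for AT5G37620. AT5G37620 at 2.39 and AT1G41750 at 2.58 repeated that value on all 3 no treatment arrays and on arrays of both sucrose groups. The unannotated probe sets with interactions of 1.40 and −0.50 repeated 2.14 and 3.53 on all 3 no treatment arrays and on other arrays. AT5G40590 repeated 5.68 on all 3 SMX arrays and on sucrose replicate 2. Differences from such a repeated value may be bounds, like those from the floor. The combination arrays lay apart from the other 9 in 10 of the 16, the SMX arrays in 5, the sucrose arrays in 2 and the no treatment arrays in 1, with some probe sets counted for more than 1 group. Over all probe sets, the combination arrays lay above the other 9 in 584 (2.57%) and below them in 570 (2.51%). For sucrose alone those counts were 270 (1.19%) and 178 (0.783%), for SMX alone 606 (2.66%) and 421 (1.85%), and for no treatment 175 (0.769%) and 129 (0.567%). The arrays of sucrose + SMX and of sucrose alone did not overlap in 12 of the 16, against 9.7% of all probe sets, and those of SMX alone and no treatment in 9 of the 16, against 7.46%. The members were chosen by the same values, so nothing is read from their counts.

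The calls depended on single arrays more than the sizes did. Leaving out each array in turn kept all 16 interactions in their direction, and 260623_at, 260152_at and AT5G37620 were called in all 12 such fits. Of these, AT5G37620 lost its call in other settings, with a limma adjusted p of 0.512 after median centring, 0.413 after quantile normalization, 0.531 without probe sets at the floor and 0.0647 with the actin score as a covariate. The call of 260152_at was lost with either score as a covariate (limma adjusted p = 0.0519 for spike, 0.0647 for actin). AT2G43620 lost its call in 7 of them, without no treatment replicate 1, 2 or 3, SMX replicate 1, sucrose replicate 2, or sucrose + SMX replicate 2 or 3 (limma adjusted p = 0.0684 to 0.0961), while its interaction stayed between 2.64 and 3.14. AT5G40590 lost its call without SMX replicate 1, no treatment replicate 2, any of the 3 sucrose replicates, or sucrose + SMX replicate 1 or 3 (limma adjusted p = 0.0644 to 0.0961), with an interaction of 2.11 to 2.50. AT1G74010 kept its call only without sucrose + SMX replicate 1, and AT5G42250 only without SMX replicate 3. In the other 11 fits the limma adjusted p was 0.0644 to 0.105 for AT1G74010 and 0.0548 to 0.131 for AT5G42250.

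Other calls depended on single arrays too. The call of 257008_at held only without SMX replicate 2 or 3 or sucrose replicate 1 or 3, and that of 262304_at only without SMX replicate 2 or 3 or sucrose + SMX replicate 1 or 3. Their highest limma adjusted p was 0.0961 for 257008_at and 0.0917 for 262304_at. AT5G12420, AT1G41750 and the low probe set at −0.50 kept their calls only without SMX replicate 2 or 3, AT2G22750 only without SMX replicate 3 or sucrose replicate 1 or 2, and the probe set at 1.40 only without sucrose + SMX replicate 1 or 3. The probe set at −1.08 lost its call only without sucrose replicate 2 or no treatment replicate 2 or 3. UGT85A5 kept its call only without SMX replicate 2 or 3 or no treatment replicate 1, with a limma adjusted p of 0.0503 to 0.0907 otherwise. The total moved by over 1.5 times without 7 of the arrays. It was 42 without SMX replicate 2 and 48 without SMX replicate 3. It was 7 without sucrose replicate 2, 9 without sucrose + SMX replicate 2 or 3 or without no treatment replicate 2, and 10 without no treatment replicate 3.

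A further 16 genes with a highest group mean of at least 5 had the next smallest p-values and were not called (limma adjusted p = 0.0602 to 0.168). Their interactions were positive in 8 and negative in 8. By the same unadjusted p rule 6 were of the combination-only kind, 6 had opposite signs, 3 the same sign, and 1 moved only without sucrose. None of these interactions passed the test.

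Several of the positive ones were high with the combination alone. AT5G64120, a class III peroxidase of the cell wall, had 8.73, 8.40 and 8.93 with sucrose + SMX, against 6.55, 6.86 and 6.88 with sucrose alone. It had 6.39, 6.47 and 6.82 with SMX alone and 6.93, 6.63 and 6.35 with no treatment. The combination arrays lay above the other 9, which overlapped, and the interaction was 2.0 ± 0.273 (limma adjusted p = 0.0602). AT2G38870, of the potato type I proteinase inhibitor family, averaged 10.45 ± 0.149 with sucrose + SMX, 9.09 ± 0.25 with sucrose alone, 9.37 ± 0.142 with SMX alone and 9.55 ± 0.186 with no treatment (SD, n = 3 each). It was highest with the combination and lowest with sucrose alone, and its interaction was 1.55 (limma adjusted p = 0.0602). AT4G38080, of the hydroxyproline-rich glycoproteins of the cell wall, averaged 7.01 ± 0.445 with the combination, 4.11 ± 0.593 with sucrose alone, 2.54 ± 0.291 with SMX alone and 2.42 ± 0.107 with no treatment. Its interaction was 2.78 (limma adjusted p = 0.109).

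AT5G04120 and AT1G74460 had the same sign at both sucrose levels and a larger value with sucrose. AT5G04120 averaged 7.01 with sucrose + SMX, 3.39 with sucrose alone, 3.70 with SMX alone and 2.45 with no treatment, with an interaction of 2.38 (limma adjusted p = 0.0602). AT1G74460, a lipase of the GDSL family, averaged 6.03, 3.90, 3.82 and 3.34 in the same order, with an interaction of 1.65 (limma adjusted p = 0.154). In both, the combination arrays were the highest and those with no treatment the lowest. AT1G19380 had an interaction of 1.57, AT4G15390, an acyltransferase of the HXXXD family, one of 1.21, and AT1G76590, of the PLATZ family of zinc-binding DNA-binding proteins, one of 0.46. AT1G76590 was lower with SMX at both sucrose levels, by 0.34 with sucrose and by 0.80 without it, and its positive interaction is the difference of those falls (limma adjusted p = 0.0277 with sucrose and 0.000925 without).

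Of the 8 negative ones, 7 had the combination arrays below the other 9, as had 570 of all probe sets (2.51%). These genes were chosen by their interaction p on the same arrays, so nothing is read from that count. AT4G15680, of the plant-specific glutaredoxins, averaged 4.61 ± 0.096 with sucrose + SMX, 5.40 ± 0.285 with sucrose alone, 8.40 ± 0.246 with SMX alone and 7.66 ± 0.125 with no treatment. Its interaction was −1.53 (limma adjusted p = 0.0767). AT2G37130, which encodes peroxidase 21, averaged 10.92, 11.48, 12.01 and 11.41 in that order, with an interaction of −1.16 (limma adjusted p = 0.0602). In both, the combination arrays were the lowest of the 12 and the SMX arrays the highest, and the same held for AT1G12080 at −1.26, AT3G26450 at −1.67 and AT4G37080 at −0.72. AT5G24580 at −1.49 and AT2G19660 at −1.12 were lowest with the combination, with no group apart at the high end. AT1G66800 had the largest negative value of these genes, −2.43, and averaged 6.07 ± 0.074 with sucrose + SMX, 7.26 ± 0.168 with sucrose alone, 7.04 ± 0.162 with SMX alone and 5.79 ± 0.661 with no treatment. Its no treatment replicate 2, at 6.55, lay far from the replicates at 5.33 and 5.50, and without that array its limma adjusted p was 0.00509. Leaving out SMX replicate 3 brought 5 of these genes under the threshold, with limma adjusted p = 0.0152 for AT5G04120, 0.0254 for AT4G15390, 0.0281 for AT1G76590, 0.0333 for AT5G24580 and 0.0441 for AT5G64120. AT5G04120 passed also without SMX replicate 2 (0.0127), AT1G12080 without sucrose replicate 3 (0.00913), AT2G37130 without no treatment replicate 1 (0.0459) and AT1G74460 without sucrose + SMX replicate 1 (0.043).

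**Figure D3:**
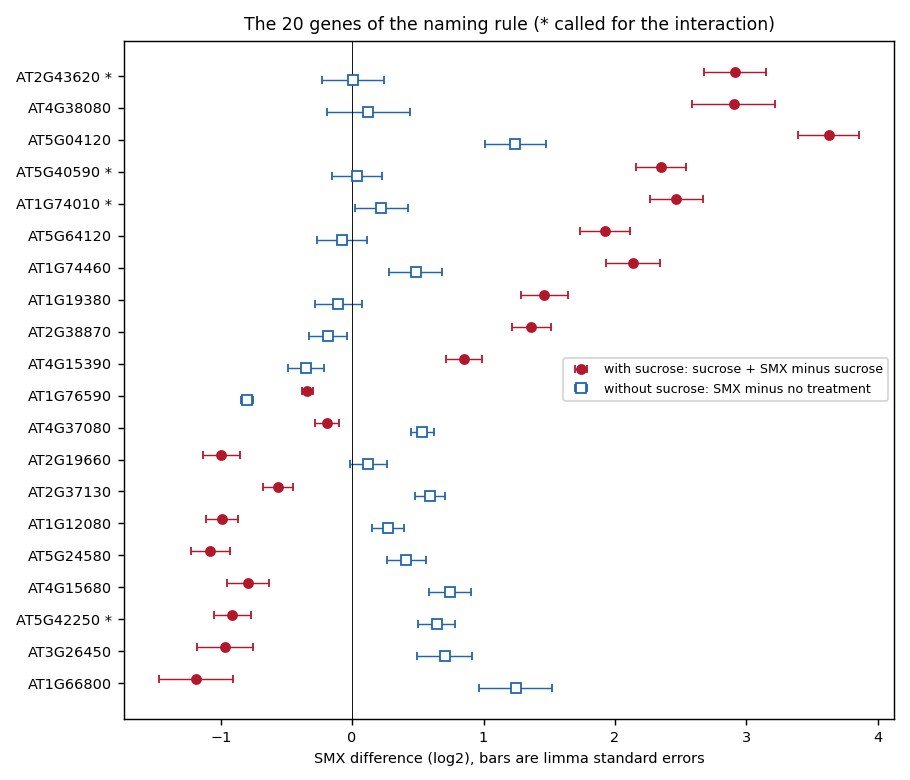
The 2 SMX differences of the 20 genes named for the interaction with a highest group mean of at least 5, with limma standard errors as bars (n = 3 arrays a group), ordered by interaction from the largest positive value at the top. Filled circles are the differences with sucrose and open squares those without it, both in log2 units, and an asterisk marks a called interaction. AT2G43620 and AT5G40590 sit near 0 without sucrose, and AT5G42250 sits on opposite sides of 0.

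The 2 SMX comparisons share no arrays, and their calls were set side by side. With sucrose, SMX called 43 probe sets (0.189%), 27 higher (0.119%) and 16 lower (0.0703%). Without sucrose it called 19 (0.0835%), 15 higher (0.0659%) and 4 lower (0.0176%). Among the 43, the median size was 1.83 with sucrose, and the difference without sucrose in the same direction had a median of 0.0312. Of the 43, 26 had the same sign without sucrose, 9 of them at an unadjusted p under 0.05, and 3 were under 0.01 in size. The opposite sign at such a p was seen in 2, and 10 were also called for the interaction. Over all probe sets, 1510 (6.64%) had such a p without sucrose, and the share with the same sign was not computed. Among the 19, the median size was 0.798, and that in the same direction with sucrose was 0.00414. With sucrose, 8 of the 19 had the same sign, 2 of them at an unadjusted p under 0.05, and 8 were under 0.01 in size. The opposite sign at such a p was seen in 1. Over all probe sets, 1256 (5.52%) had such a p with sucrose. Each set was chosen by its own SMX difference, so a larger median at that sucrose level was built in. Each SMX difference is also a part of the interaction, so the shared calls are no further support. Of the 19, 14 were under 5 in every group mean, a share not computed over all probe sets, and 5 were called for the interaction. Over all 22746 probe sets the 2 SMX differences had SDs of 0.285 with sucrose and 0.288 without it, and a Pearson correlation of −0.0366. Over the 10973 probe sets with a mean above 6 it was −0.0894, a correlation across probe sets of the same arrays, which are not independent replicates.

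A wider set, chosen after seeing how few calls there were, took probe sets with an unadjusted p under 0.05 and an interaction of at least 1 in size. It held 452 probe sets, 164 positive and 288 negative. Of these, 206 were of the combination-only kind, 69 positive and 137 negative. Another 139 moved only without sucrose, 37 had opposite signs, 7 the same sign, and 63 passed the unadjusted p at neither sucrose level. Of the 37 with opposite signs, 30 were lower with sucrose + SMX than with sucrose alone and higher with SMX alone than with no treatment. These counts describe probe sets that did not pass the adjustment, apart from the called ones.

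Gene lists for folate and one-carbon metabolism, sugar response, hormones, cell wall, defence, photosynthesis, organelles and tissues held 432 distinct probe sets in 35 lists. UGT85A5, whose positive sign was forced by the floor, was the 1 called member. In 21 lists 36 members, UGT85A5 included, had an unadjusted p under 0.05. The called member and the 36 are 0.231% and 8.33% of the 432, against 0.0703% and 6.12% of all probe sets. The folate and one-carbon list, 8 probe sets, had a median interaction of −0.02, with 4 members above 0 and 4 below, against a median of 0.0 over all probe sets. None of its members had an unadjusted p under 0.05, and its extremes were −0.49 and 0.20. The nucleotide synthesis list, 8 probe sets fed by folate-borne carbon, had a median of 0.16 and also no such member. All 6 members of the methionine and methyl cycle list lay above 0, with a median of 0.55 and 1 member at an unadjusted p under 0.05. The sugar starvation list, 9 probe sets, had a median of −0.45 with 8 members below 0, and the 26 sugar-induced probe sets a median of 0.0. Over all 22746 probe sets, 10593 interactions lay above 0 and 10329 below.

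Members outside the naming rule are given here after their values were seen, and none was called. LBD29, a transcription factor of auxin-induced lateral root formation, had 2.12, 2.86 and 2.27 with sucrose + SMX, 2.95, 2.93 and 2.94 with sucrose alone, 4.49, 4.65 and 4.07 with SMX alone, and 2.97, 3.14 and 3.00 with no treatment. It was lowest with the combination and highest with SMX alone, with an interaction of −1.89 ± 0.28 (limma adjusted p = 0.0765). IAA29, an auxin-induced repressor of auxin response, averaged 4.69 with sucrose + SMX, 6.15 with sucrose alone, 8.15 with SMX alone and 7.73 with no treatment, with an interaction of −1.88 (limma adjusted p = 0.247). The auxin response list as a whole, 15 probe sets, had a median of −0.12. EXPA7, an expansin of root hairs, averaged 7.48 with sucrose + SMX, 6.30 with sucrose alone, 3.25 with SMX alone and 3.54 with no treatment. XTH26, a cell wall xyloglucan enzyme of the same list, averaged 5.27, 3.41, 3.04 and 2.55 in that order. Their interactions were 1.47 and 1.37, and the 4 members of the root hair list had a median of 0.88. JAL22, a jacalin-related lectin, averaged 8.52 with sucrose + SMX, 10.56 with sucrose alone, 9.75 with SMX alone and 9.19 with no treatment, with an interaction of −2.61 (limma adjusted p = 0.216).

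**Figure D4:**
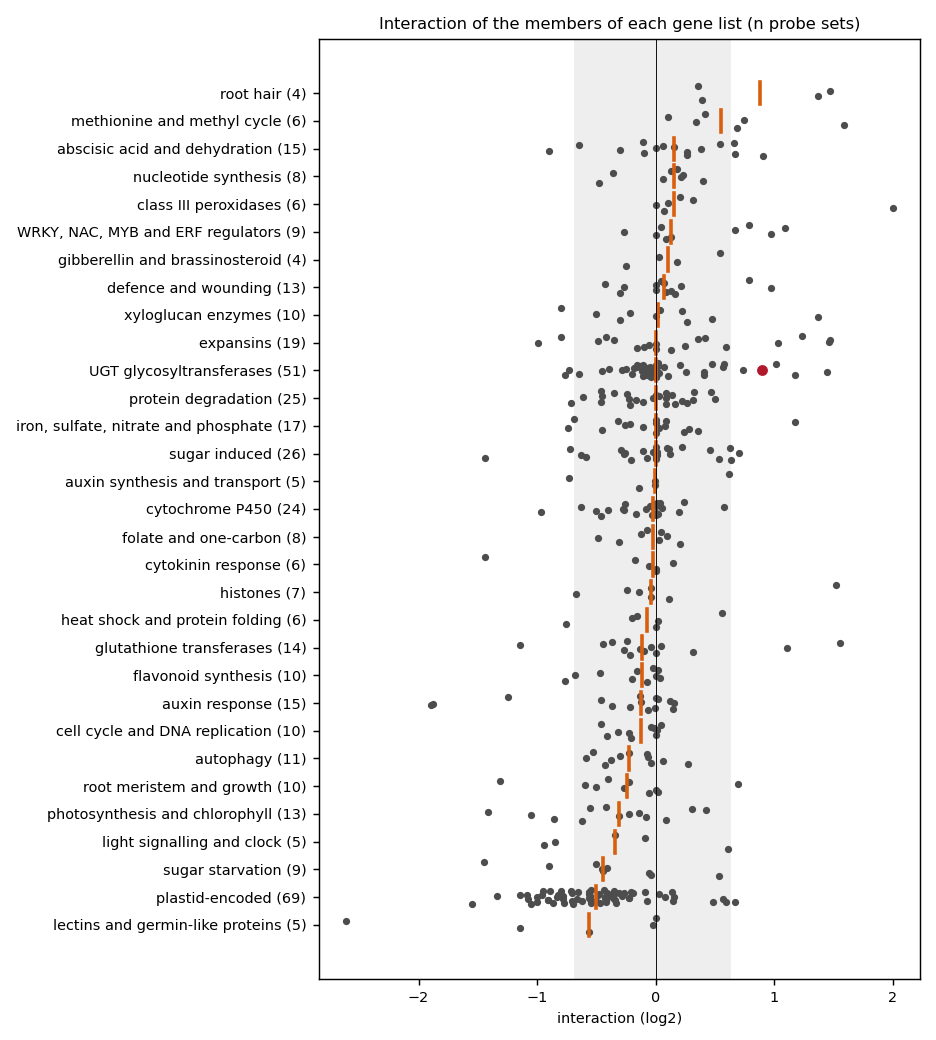
The interaction (log2) of each member of the gene lists with at least 4 probe sets, 1 row per list with its number of probe sets in brackets, in order of the list median (orange bar). Grey shading covers the 5th to the 95th percentile of all 22746 probe sets, −0.68 to 0.63, and the red point is UGT85A5, the 1 called member; the plastid-encoded members lie mostly below 0.

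Transcripts encoded in the plastid genome lay mostly below 0, though none was called. Of 69 such probe sets, 60 had a negative interaction, with a median of −0.51, and 1 had an unadjusted p under 0.05. Over all 22746 probe sets, 10329 had a negative interaction, and 6.12% had an unadjusted p under 0.05. For the 69, the median SMX difference with sucrose was −0.05, and that without sucrose was 0.50. The mean over the 69 was 9.0, 9.21 and 8.74 on the arrays with sucrose + SMX, 9.56, 9.01 and 8.58 with sucrose alone, 9.73, 9.42 and 9.75 with SMX alone, and 8.61, 9.88 and 9.12 with no treatment. The SMX arrays overlapped those with no treatment, which spread over the widest range. Without no treatment replicate 1 the median interaction was −0.12, and without no treatment replicate 2 it was −0.85, so this value rested on single control arrays. Without sucrose replicate 1 it was −0.26.

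Labelling measures differed with sucrose and, less so, between the SMX differences. The actin score, the 3′ minus the 5′ log2 value of the actin control probe sets, averaged 1.15 ± 0.248 with sucrose + SMX, 1.48 ± 0.51 with sucrose alone, 6.48 ± 1.39 with SMX alone and 5.80 ± 2.04 with no treatment (SD, n = 3 each). The spike score, the same difference over 3 Bacillus subtilis control transcripts, averaged −0.25, −0.23, 4.47 and 4.11 in that order. Their interactions were −1.02 and −0.37, within the spread of the arrays without sucrose. Neither score overlapped between the arrays with and without sucrose. The 2 SMX differences were thus measured on arrays of unlike labelling, and labelling and sucrose level cannot be told apart. In a fit that took the spike score into account 3 probe sets were called, 260623_at, UGT85A5 and AT5G37620. In one with the actin score 2 were called, 260623_at and UGT85A5. The sign of UGT85A5 was forced by the floor, and the differences of AT5G37620, from a repeated low value, may be bounds. With the actin score the plastid-encoded median was −0.23.

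**Figure D5:**
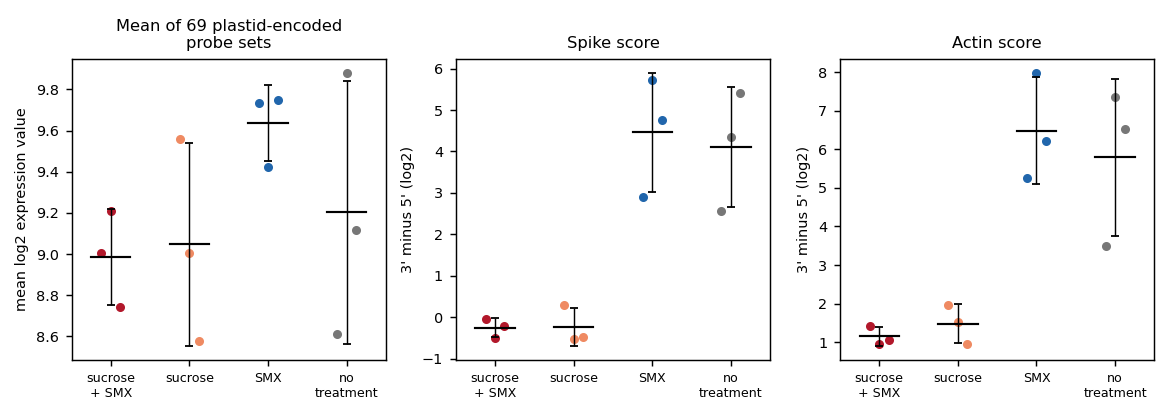
For each array, the mean log2 value of the 69 plastid-encoded probe sets (left), the spike score (middle) and the actin score (right), by treatment, with the mean (long bar) and SD (error bar, n = 3). The scores lie between −0.52 and 1.97 on the 6 arrays with sucrose and between 2.56 and 7.99 on the 6 without, and the plastid means of no treatment run over 8.61 to 9.88.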

How the data were processed

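Per the labels' protocols, RNeasy kits gave total RNA, which was labelled with biotin by the Affymetrix one-cycle assay. The authors deposited a log2 value for every probe set on every array. GCRMA and limma are named, without versions, in the submitters' processing notes, and the log base was read from the value range of 2.118 to 15.67. GCRMA subtracts a modelled background, which leaves many low probe sets on a shared lowest value.

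From these values 1 limma fit (lmFit and eBayes, limma 3.58.1, R 4.3.3) of the 4 groups gave the interaction and both SMX differences. Benjamini-Hochberg adjustment ran over 22746 probe sets, two-sided, and a call was an adjusted p under 0.05. The script was tested on simulated data. Gene names came from the platform annotation and the RefSeq table of TAIR10.1, under which 13513 probe sets had 1 gene (13436 of them with a current locus), 503 had more than 1 and 8730 had none. Binding of a probe set to close paralogs was not tested.

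Named were up to 10 called genes each way with a highest group mean of at least 5, up to 4 per kind and direction, called members of each list (at most 3), genes with the next smallest p up to 20, the 2 target enzyme genes, and at most 2 unannotated probe sets each way. The members and lists were chosen with earlier results of these data known. AT5G66760 was taken out of the folate list after its values were seen, because it is no folate gene; with it the list's median was 0.03 over 9 probe sets. Lists were matched by symbol, locus or name pattern, so some family members were not in them.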

Additional observations from a re-analysis of the deposited data

Results flagged for a closer look

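The SMX difference itself differed between the sucrose levels, by the limma interaction test, in the 16 called probe sets. Positive interactions were 4.84 for 257008_at, 3.66 for 260623_at, 2.91 for AT2G43620, 2.31 for AT5G40590, 2.25 for AT1G74010, 1.51 for AT5G12420, 1.40 for an unannotated probe set of low level, and 0.90 for UGT85A5. Negative ones were −3.81 for 260152_at, −2.94 for 262304_at, −1.56 for AT5G42250, −1.19 for AT1G41750, −1.08 and −0.50 for unannotated probe sets, −0.50 for AT2G22750, and −0.35 for AT5G37620. Of these, 7 had a highest group mean under 5. The positive sign of UGT85A5 was forced by the floor and shows no dependence on sucrose.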

How the results depend on the processing

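All 16 called interactions kept their direction under every setting below but the last, where this was not followed, and 260623_at was called in all 20 of those settings and left-out arrays that fitted it. The count of calls, 16 in the main fit (8 combination only, 4 without sucrose only, 3 opposite), moved more. It was 8 after quantile normalization (5, 1 and 2 of those kinds), 6 over probe sets of 1 gene (3, 3 and 0), 3 with the spike score as a covariate (1, 2 and 0) and 2 with the actin score (1, 1 and 0). The fit with a replicate block called 1 (1, 0 and 0). The labels do not say what a replicate number shares, and 6 of 18 same-number correlations of residuals were over 0.1 (range −0.36 to 0.223), so the arrays were not treated as paired. As a hint from the data, 8 of 12 arrays correlated best with an array of their own number in another group, but not every one did. The total stayed within 1.5 times in other settings, often through other probe sets. It was 21 under median centring (10, 0 and 9 of the kinds; 11 among the 16), 11 with a mean above 4 (7, 0 and 3; 5 among the 16), 19 with a mean above 6 (9, 0 and 10; 4 among the 16), 20 with no group at the floor (11, 2 and 5; 12 among the 16), 24 with array weights (9, 11 and 2; 13 among the 16) and 12 with a size of at least 1 (7, 1 and 3). With moved taken as an adjusted p under 0.05 the opposite kind held 0. The split of 8 positive and 8 negative calls became 9 and 33 without SMX replicate 2 and 12 and 36 without SMX replicate 3. Leaving out 1 array at a time gave 7 to 48 calls, of which 2 to 12 were combination only, 1 to 29 without sucrose only and 0 to 9 opposite. A fit without no treatment replicates 1 and 3 together, chosen after seeing the data, called 396 (365 positive and 31 negative; 17, 359 and 20 of the kinds), of which 14 were among the 16. It leaves 1 no treatment array, assumed to vary like the other groups. In every case the cause was not tested. Values near the floor have no exact size, and promoter motifs were not searched because no promoter sequences were at hand.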
